A study of Mus musculus with 16 samples.

Results

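Plasmacytoid dendritic cells were picked from the CD45+ spleen cells of untreated mice by their own transcripts. A cell was taken when it held at least 2 unique molecular identifiers (UMIs, each a count of 1 captured RNA molecule) of Siglech, at least 1 UMI of Bst2, Ccr9 or Tcf4, and no UMI of the T cell gene Cd3e or the B cell gene Cd79a. This gave 128 of 47060 cells, or 0.272% (95% Clopper-Pearson interval 0.227 to 0.323%, covering counting error only). The naive spleen came from wild-type C57BL/6J mice that received no transplant; the study used male mice, and the age of these animals is not given in the sources used here. Viable CD45+ cells were sorted and read with a droplet method that tags the 3′ end of each transcript. Barcode tags divided the matrix into 5 libraries, called library 1 to library 5 here. The study's methods treat each mouse as its own sample, but no label ties a tag to a mouse, so p-values are read as the spread between libraries, which may be technical. Other populations of the same libraries served for comparison: 186 other Flt3-positive cells (a Flt3 UMI, not picked as above, no Cd3e or Cd79a UMI) and 28576 B cells (a Cd79a UMI, a UMI of Ms4a1 or of a further B cell marker, no Cd3e UMI). A last matrix held CD45+ cells of rejecting kidney grafts at week 1, where kidneys of C57BL/6J donors had been placed in DBA/2J recipients.

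Plasmacytoid dendritic cells (pDCs) are bone marrow-derived cells of the dendritic lineage that resemble resting lymphocytes in shape. They sense viral and self nucleic acids in endosomes through Toll-like receptors and can release large amounts of type I interferon. Their fate rests on the E protein transcription factor Tcf4, which binds E-box motifs, while conventional dendritic cells (cDCs) carry the E protein antagonist Id2. Siglech is a sialic acid-binding surface receptor, Bst2 is the antigen of common pDC antibodies, and Ccr9 is a chemokine receptor for gut and thymic homing.

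The promoters of some pDC genes can be shown beside these data because the lineage regulator binds a short, known motif. The letters CAGGTG and CAGCTG are E-box forms, and both strands were searched in the 250 bases before each RefSeq start (GRCm38.p6). At least 1 of these 2 motifs lay in 27.9% of 32536 windows. Among genes known from pDCs and not used to pick the cells (here called identity genes), 11 of 16 had at least 1 window and 6 of those 11 genes held a motif; among pDC regulators it was 3 of 10 genes. Some genes have several starts, and the like count over windows was 7 of 16 for the identity genes and 4 of 18 for the regulators. The 4 windows that follow were chosen because they hold a motif, written in capitals; CACCTG is CAGGTG read on the other strand. A match is a description of letters and not a binding site. Each window is printed from 5′ to 3′ on the gene's strand.
Klk1 (chr7:44225110-44225359, plus strand): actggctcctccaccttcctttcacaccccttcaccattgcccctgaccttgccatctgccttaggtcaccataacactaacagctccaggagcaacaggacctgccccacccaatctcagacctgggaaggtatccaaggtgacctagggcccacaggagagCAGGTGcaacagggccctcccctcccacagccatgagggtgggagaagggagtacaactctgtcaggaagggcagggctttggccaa
Cd300c (chr11:114960508-114960757, minus strand): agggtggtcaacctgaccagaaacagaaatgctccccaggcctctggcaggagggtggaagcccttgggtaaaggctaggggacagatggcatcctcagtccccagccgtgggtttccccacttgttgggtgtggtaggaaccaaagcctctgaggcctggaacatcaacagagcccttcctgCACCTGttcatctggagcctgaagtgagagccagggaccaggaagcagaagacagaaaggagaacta
Mctp2 (chr7:72306596-72306845, minus strand): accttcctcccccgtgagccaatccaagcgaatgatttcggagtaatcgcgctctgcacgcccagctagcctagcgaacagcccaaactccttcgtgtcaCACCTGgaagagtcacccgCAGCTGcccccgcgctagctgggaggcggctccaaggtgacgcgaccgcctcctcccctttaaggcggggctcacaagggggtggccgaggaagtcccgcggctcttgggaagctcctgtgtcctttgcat
Blnk (chr19:40994222-40994471, minus strand): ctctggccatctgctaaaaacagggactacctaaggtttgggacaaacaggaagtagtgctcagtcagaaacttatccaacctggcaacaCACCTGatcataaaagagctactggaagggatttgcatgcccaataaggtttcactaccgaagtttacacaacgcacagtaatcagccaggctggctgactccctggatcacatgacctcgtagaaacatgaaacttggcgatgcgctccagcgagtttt
In Klk1 the motif lay 87 bases before the start and in Cd300c 67 bases before it. Mctp2 held 2 motifs, 150 and 131 bases before the start, and Blnk held 1 at 160 bases.

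The cells were found in every library at a similar share. Libraries 1 to 5 held 31, 18, 23, 23 and 33 of them, and their share of all CD45+ cells was 0.270% ± 0.0454 (SD, n = 5), with a range of 0.224 to 0.345%. Library 1 to library 5 together held 171493067 UMIs, between 30054753 and 37016197 each, and the median CD45+ cell had 3068. The median pDC had 5702 UMIs over 2189 genes, and the pDCs of a library summed to 114922 to 167973 UMIs, so a gene at 10 CPM (counts of a gene per 1000000 UMIs of the summed cells) rests on 1 or 2 molecules in a library. The median was 6169.5 UMIs in the other Flt3-positive cells and 2738 in B cells. Of the pDC barcode sequences, 1 was also present in another library, among 238 sequences shared between libraries in all. None of the pDCs was among the barcodes of the separately deposited CD8 T cells.

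**Figure D1:**
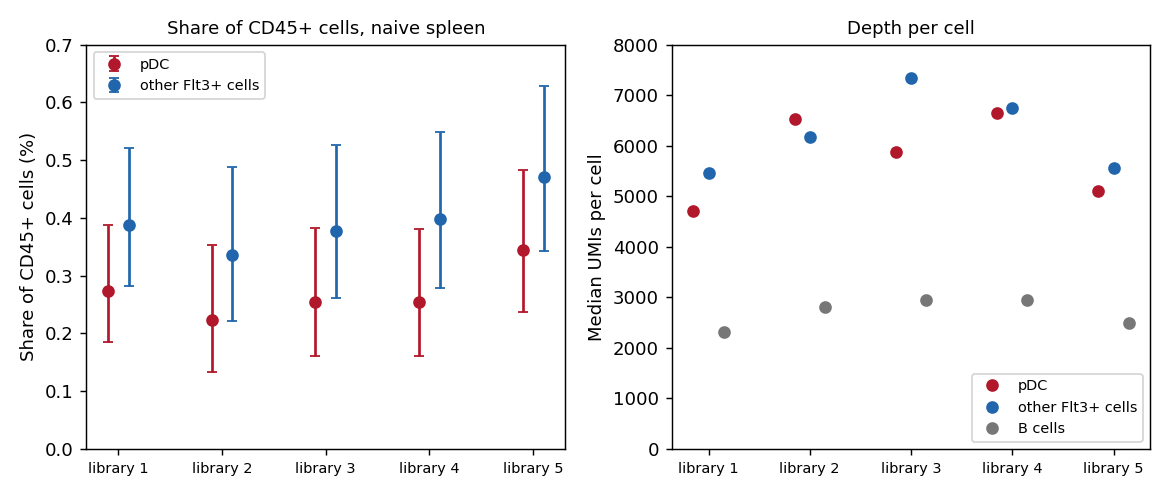
Left, the share of CD45+ cells in percent that were pDCs or other Flt3-positive cells in each library, with 95% Clopper-Pearson intervals as bars; right, the median UMIs per cell of pDCs, other Flt3-positive cells and B cells. The pDC shares lie between 0.224 and 0.345%, and the pDC medians between 4709 and 6643 UMIs, above the B cell medians of 2314 to 2951.

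Siglech, Bst2, Ccr9, Tcf4 and the lack of Cd3e and Cd79a chose the cells, so their levels are given as a description with no test. Siglech stood at 2629, 3193, 3237, 3114 and 3316 CPM in libraries 1 to 5, against means of 2.98 CPM in the other Flt3-positive cells and 3.52 CPM in B cells. Every pDC had a Tcf4 UMI, 126 had Bst2, 116 had Ccr9, and 115 had all 3. Flt3, the receptor of the dendritic cell growth factor Flt3 ligand, was seen in 65 of 128 (50.8%). At the threshold, the 6 cells with 2 or 3 Siglech UMIs held 2 to 6 of the 15 measured identity genes, and the 5 cells with 1 Siglech UMI that met the other conditions held 0 to 7. A further 31 cells had at least 2 Siglech UMIs but were left out for a Cd79a or Cd3e UMI. Those 31 had a median of 9530 UMIs and a median of 11 identity genes. No doublet caller was run, and the share of doublets among them was not tested.

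The label was checked against the identity genes, which the picking did not use. The median pDC held a UMI of 12 of the 15 measured genes (range 1 to 15), and 115 of 128 (89.8%) held at least 8. Of the 186 other Flt3-positive cells none reached 8, which allows a share of up to 1.61%, and their median was 1 gene. Among B cells 18 of 28576 (0.0630%) reached 8, and all 18 of them were among the 19 B cells with at least 2 Siglech UMIs. These 19 cells were among those left out above for a Cd79a or Cd3e UMI, and they stayed in the B cell population. The 13 pDCs with fewer than 8 identity genes had a median of 6075 UMIs and 5 Siglech UMIs, and 4 of them held at least 2 macrophage or monocyte marker genes. The data go against the label for these 13 cells, which are kept in every value because the rule picked them.

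All 15 measured identity genes were higher in pDCs than in the other Flt3-positive cells, with no overlap between libraries, and the median log2 difference was 4.95 against 0.10 over all genes tested. Over 2702 genes tested, 22.9% were called higher and 16.8% lower, 39.7% in all (edgeR's quasi-likelihood test on summed UMIs with library as a block, Benjamini-Hochberg threshold 0.05), and 27.7% had libraries that did not overlap. With TMM scaling the calls were 520 higher and 547 lower rather than 618 and 455, and with DESeq2 334 and 371; TMM moved the median of all genes by -0.10 and DESeq2 by -0.11. Because the cells were picked on Siglech and its partners, genes that travel with these describe the cells chosen. A gene could also pass the filter on low counts through its level in 1 population alone, as Klk1, Cox6a2, Klra17 and Pacsin1 did with 0 to 3 UMIs in the Flt3-positive cells, and such a gene had to differ; the counts and medians of the gene lists are therefore a description, here and in the other lists. In the comparison with B cells, 17.8% of 11072 genes were called higher and 11.0% lower, 28.8% in all, and 29.5% did not overlap. Of the identity genes 14 of 15 were higher than in B cells, and the median log2 difference was 6.76 against 0.04 over all genes. TMM changed the B cell comparison from 1975 higher and 1215 lower to 1487 and 2044, with a shift of -0.27, and DESeq2 gave 1388 and 1155 with a shift of -0.21.

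Klk1, a secreted serine protease of the kallikrein family, had 340 UMIs in pDCs and 0 in the other Flt3-positive cells. Its pDC level was 440, 513, 665, 340 and 405 CPM in libraries 1 to 5. It was at least 185-fold higher in pDCs when the Flt3-positive total is set at 3 counts over the group, and in B cells its mean was 0.662 CPM. Cox6a2, the heart and muscle form of a cytochrome c oxidase subunit, stood at 676, 1131, 865, 837 and 786 CPM. It had 2 UMIs in the other Flt3-positive cells, a ratio of 503 (95% counting interval 139 to 4159), and 0.973 CPM in B cells. Both genes were far above either comparison in each library. Klk1 and the Ly6 family genes Ly6a and Ly6c2 have near-identical relatives, so reads may be split among copies. Smim5, a small membrane protein gene, averaged 418 ± 68.1 CPM (SD, n = 5) against 8.43 CPM in the Flt3-positive cells. The log2 difference was 5.54, and Smim5 passed the filter on low counts through its pDC level, so no test is read. Ly6d, a surface protein shared by pDC and B cell progenitors, was 3355, 2315, 2365, 2820 and 2715 CPM in pDCs and 36.8 CPM in the Flt3-positive cells. Its B cell mean was 2049 CPM, and the difference of 0.40 on the log2 scale from B cells was not called with TMM or DESeq2.

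The other identity genes differed in level and in how far they stood from each population. Ly6c2, a Ly6 family surface antigen, averaged 2190.4 ± 556 CPM against 181 in the Flt3-positive cells and 24.6 in B cells. Lair1, an inhibitory collagen receptor, averaged 922 CPM against 73.5 and 9.20. P2ry14, a receptor for UDP-sugars, averaged 506 ± 84.0 CPM against 117 and 1.73. Lag3, an inhibitory receptor that binds MHC class II, averaged 141 CPM against 10.2 and 0.585. Pacsin1, a membrane-bending adaptor otherwise known from neurons, had 158 UMIs against 3 in the Flt3-positive cells, a ratio of 85.9 (95% counting interval 28.9 to 421). Blnk, the linker that couples the B cell receptor to its effectors, was the identity gene not called against B cells: 193 CPM in pDCs and 245 CPM in B cells (adjusted p = 0.0661, edgeR), and it was called lower in pDCs with TMM and DESeq2. Against the Flt3-positive cells Blnk was 4.95 higher on the log2 scale.

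**Figure D2:**
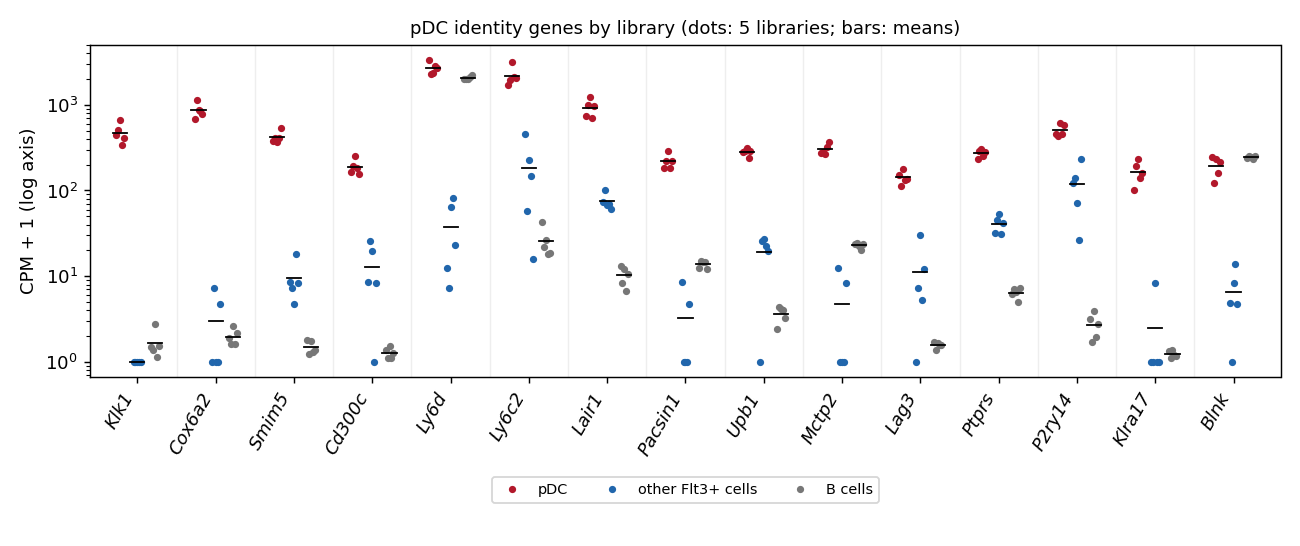
Level of the identity genes as CPM + 1 on a log axis in pDCs, other Flt3-positive cells and B cells. The pDC points lie above those of the other Flt3-positive cells for all 15 genes, with 1 dot per library and a bar at the mean, and Ly6d and Blnk have B cell levels near the pDC level.

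Among 10 regulators of the pDC lineage, 8 were higher and 1 lower than in the other Flt3-positive cells (median log2 difference 1.95). Beside B cells 9 were higher and 1 lower (median 1.38). Over all genes tested, 22.9% were higher and 16.8% lower in the former comparison, and 17.8% and 11.0% in the latter. Runx2, a Runt family factor needed for pDCs to leave the marrow, stood at 775, 774, 1279, 844 and 875 CPM in pDCs and averaged 44.0 CPM in the Flt3-positive cells and 2.67 CPM in B cells. Its log2 difference was 4.36 from the Flt3-positive cells and 8.41 (SE 0.14) from B cells. Beside the Flt3-positive cells Runx2 passed the filter on low counts through its pDC level, so no test is read there. Irf8, an interferon regulatory factor of dendritic and B cells, was 3491, 3568, 4228, 3147 and 4072 CPM in pDCs, 817 CPM in the Flt3-positive cells and 378 CPM in B cells. Irf7, which drives type I interferon genes after sensing, ranged from 99.2 CPM in library 1 to 355 CPM in library 3. Its mean of 216 ± 103 CPM was above 42.7 CPM in the Flt3-positive cells and 17.8 CPM in B cells. Beside the Flt3-positive cells Irf7 passed the filter on low counts through its pDC level, so no test is read there. Bcl11a, a zinc finger factor shared with B cells, averaged 1028 CPM against 317 and 514.

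The B lineage factors did not all follow. Spib, an Ets family factor, averaged 278 ± 51.4 CPM against 26.0 CPM in the Flt3-positive cells. It passed the filter on low counts there through its pDC level, so no test is read. Against 207 CPM in B cells its log2 difference was 0.43 (adjusted p = 0.00597, edgeR), and this was not called with TMM, with DESeq2, without library 3 or without library 5. Mef2c, a MADS-box factor, was 2.19 higher on the log2 scale than in the Flt3-positive cells and 0.41 lower than in B cells. Ikzf1, the lymphoid factor Ikaros, averaged 327 CPM against 185 CPM in the Flt3-positive cells and 244 CPM in B cells, and its B cell call was lost with TMM, with DESeq2 and without library 5. Cbfa2t3, a corepressor that limits Id2, was the regulator called lower than in the Flt3-positive cells: 304, 270, 281, 307 and 274 CPM in pDCs against a mean of 523 CPM. Stat3, the transducer of Flt3 signals, was not called against the Flt3-positive cells, at 173 against 145 CPM.

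Of 8 regulators of conventional dendritic cells, 4 passed the filter on low counts against the Flt3-positive cells, and 3 were called lower (16.8% over all genes). These 3 were low in pDCs and passed through the level of the Flt3-positive cells. Id2 was 18.6, 26.1, 0, 32.7 and 5.95 CPM in pDCs and averaged 509 CPM in the Flt3-positive cells. Its log2 difference was -4.92, from which no test is read. Batf3, needed for cross-presenting cDCs, had 1 UMI in pDCs and 206 in the Flt3-positive cells, a ratio of 126 the other way. Relb, an NF-kB subunit of cDCs, averaged 27.8 CPM against 210. Klf4, a factor of a cDC branch, was 108 CPM against 130 and was not called. Against B cells 5 of the 8 passed the filter, with 1 higher and 2 lower (median log2 difference -0.31), beside 17.8% and 11.0% over all genes. The Flt3-positive cells are a mixture: 44 of 186 held a UMI of the cDC factor Zbtb46, and their summed macrophage and monocyte marker level was 1563 to 4919 CPM across libraries, against 17.9 to 458 CPM in pDCs and 78.3 to 433 CPM in B cells. With the 52 Flt3-positive cells free of those markers 329 genes were higher and 161 lower, over 1554 genes tested; the part of the markers in the differences was not tested apart from the loss of cells.

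**Figure D3:**
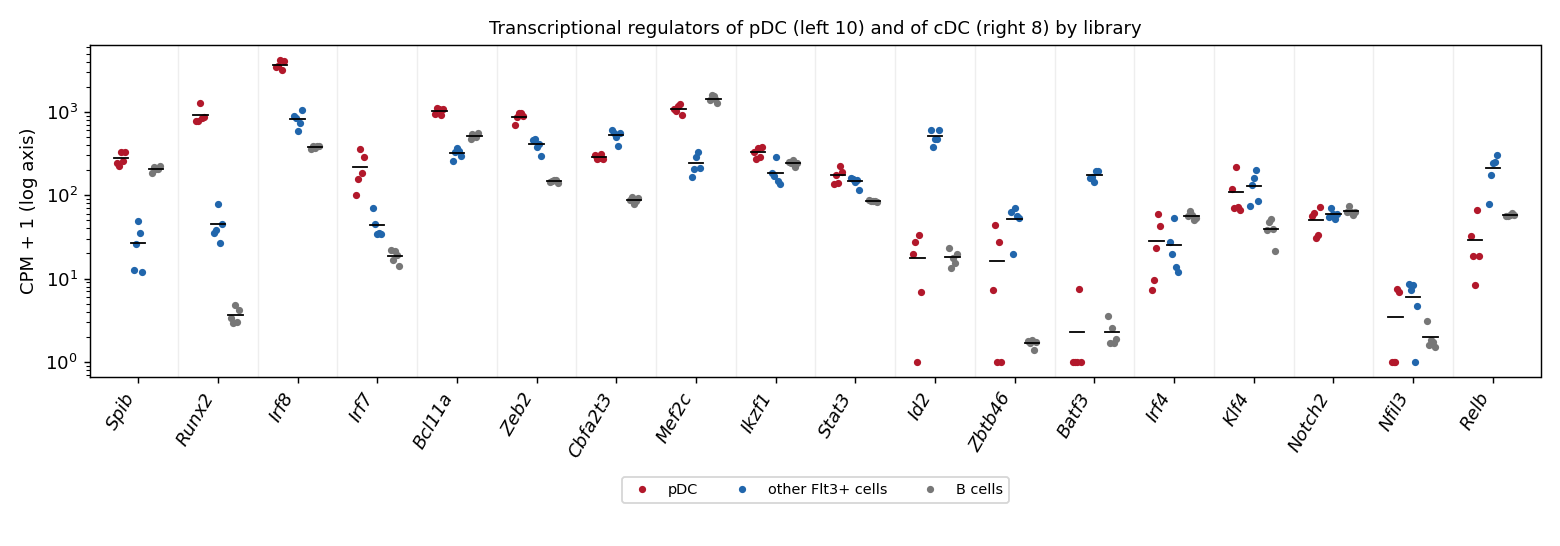
Level as CPM + 1 on a log axis of 10 pDC regulators and 8 cDC regulators in pDCs, other Flt3-positive cells and B cells, with 1 dot per library and a bar at the mean. Runx2 and Irf8 lie highest in pDCs, Id2 and Batf3 lie highest in the other Flt3-positive cells, and Mef2c lies slightly higher in B cells than in pDCs.

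Marker genes of cDCs split. Of 11 tested, 7 were lower in pDCs than in the Flt3-positive cells, 1 was higher and 3 were not called. Over all genes 16.8% were lower and 22.9% higher. Xcr1, Ccr7 and Naaa, with 0 to 7 pDC UMIs, passed the filter through the Flt3-positive cells, where they are high, as did Wdfy4. Clec10a, the gene that was higher, passed through its pDC level. No test against the Flt3-positive cells is read for any of these genes. The count of 7 was 3 with Flt3-positive cells that held Zbtb46, 4 with those free of macrophage and monocyte markers and 4 with pDCs free of foreign markers. Xcr1, the chemokine receptor of cross-presenting cDCs, had 0 UMIs in pDCs and averaged 236 CPM in the Flt3-positive cells, at least 54.7-fold lower in pDCs with the pDC total set at 3 counts. Naaa, a lysosomal amidase, averaged 9.44 CPM against 352, Ccr7, the receptor for lymph node homing, 7.31 against 153, and Wdfy4, a cross-presentation factor, 48.8 against 358. Itgax, the integrin CD11c, averaged 68.8 CPM against 139, and this call was lost without library 2 and without library 5. Clec10a, a galactose-binding lectin, went the other way, at 174, 60.9, 259, 118 and 149 CPM in pDCs against 23.3 CPM in the Flt3-positive cells. Clec9a, the receptor for exposed actin of dead cells, was 132 CPM against 147, and Cd209a, a DC-SIGN relative, 219 CPM against 174; neither was called. Against B cells 6 of 11 were higher and 3 lower (median log2 difference 3.66), beside 17.8% and 11.0% over all genes. Clec9a, Cd209a, Clec10a and Itgax were among the higher, with B cell means of 0.672, 1.15, 0.352 and 2.41 CPM, and Ccr7 and Wdfy4 among the lower, with B cell means of 109 and 124 CPM.

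The 10 largest log2 differences from the Flt3-positive cells in favour of pDCs were in Klk1, Gm21762, Cox6a2, Cdh5, Ly6a, Atp1b1, Ctsl, Klra17, Ly6d and Pacsin1. Gm21762, an uncharacterised gene, had 228 UMIs in pDCs and 0 in the Flt3-positive cells (at least 124-fold higher), and Cdh5, an adhesion molecule of endothelial junctions, 84 and 0 (at least 45.7-fold higher). Atp1b1, a subunit of the sodium pump, averaged 712 ± 128 CPM against 3.87, and Ctsl, a lysosomal protease, 991 ± 148 CPM against 13.3. Ly6a averaged 1190.2 ± 147 CPM against 6.97, and Klra17 had 117 UMIs against 2, a ratio of 95.5 (95% counting interval 25.8 to 798). The lowest were Xcr1, Batf3 and Zfp366, a DC-associated zinc finger gene with 0 pDC UMIs (at least 27.6-fold lower). Apol7c averaged 5.65 CPM in pDCs against 527 CPM, Ccl5, a T cell-attracting chemokine, 22.2 CPM against 1287, and Lyz2, the lysozyme of macrophages, 55.1 CPM against 2755. Also among the 10 lowest were Tgfbi, with 2 pDC UMIs against 250, Cxcl16, with 1 against 130, Gm34084, with 1 against 134, and Bcl2a1b, with 4 against 311; Bcl2a1b belongs to a family of near-identical copies, so its count is uncertain.

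Against B cells the largest differences in favour of pDCs were in Gm21762, Cox6a2, Smim5, Klk1, Cd300c, Klra17, Cd209d, Paqr5, Gria3 and Dntt. Cd209d, another DC-SIGN relative, averaged 289 ± 106 CPM against 0.485, Paqr5, a membrane progestin receptor, 124 against 0.217, and Gria3, a glutamate receptor subunit, 138 against 0.252. B lineage genes made up most of the other end. Ebf1, an early B cell factor, had 2 pDC UMIs and averaged 1313 CPM in B cells. Pax5, the factor of B cell commitment, had 3 and averaged 483 CPM, Bank1, a B cell scaffold, averaged 7.61 CPM against 901, and Myo1e, an unconventional myosin, had 0 (at least 34.1-fold lower). Cd22, an inhibitory B cell receptor, Cr2, a complement receptor, Pou2af1, a B cell coactivator, S1pr1, an egress receptor, Vpreb3 and Tspan32 had 1 or 2 pDC UMIs each. Since B cells were picked on Cd79a and other B cell markers, and pDCs on the absence of Cd79a, this end describes that choice.

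For nucleic acid sensing, 4 of 7 tested genes were higher and 1 lower than in the Flt3-positive cells (median log2 difference 0.80). Over all genes 22.9% were higher and 16.8% lower there. Beside B cells 6 of 16 were higher and 1 lower (median 0.71), against 17.8% and 11.0% over all genes. Tlr7, the endosomal receptor for single-stranded RNA, was 93.0, 95.7, 81.3, 105 and 59.5 CPM in pDCs. It averaged 16.0 CPM in B cells (log2 difference 2.44, SE 0.28, adjusted p = 3.89e-17, edgeR) and did not pass the filter on low counts beside the Flt3-positive cells, with 63 UMIs in pDCs and 19 in those cells. Unc93b1, which carries Toll-like receptors to endosomes, averaged 511 ± 55.0 CPM against 297 in the Flt3-positive cells and 293 in B cells. Slc15a4, a lysosomal transporter needed for interferon from pDCs, averaged 159 CPM against 68.4 and 70.9, and Hsp90b1, the chaperone of Toll-like receptors, 1099 ± 72.5 CPM against 429 and 466. Tlr9, the receptor for unmethylated DNA, had UMIs in 1.56% of pDCs, 1.61% of Flt3-positive cells and 1.15% of B cells. At 1000 UMIs per cell none of the 128 pDCs held a Tlr9 UMI, so its level was not readable at this depth. Tlr4, the lipopolysaccharide receptor, had 0 pDC UMIs against a B cell mean of 7.54 CPM. It passed the filter on low counts through the B cells, and its call was lost with DESeq2 and without library 5.

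The 18 type I and III interferon genes of the list had no row in the naive spleen matrix and were not analysed here. Among genes induced by interferon, 3 of 4 tested were higher and 1 lower than in the Flt3-positive cells (22.9% and 16.8% over all genes). Beside B cells 6 of 17 were higher and 1 lower (17.8% and 11.0% over all genes). Stat2, a transducer of the interferon receptor, averaged 143 CPM against 55.4 and 53.4, and Trim30a, a regulator of Toll-like receptor signals, 386 against 141 and 120. Ifi44 averaged 51.2 CPM against 0.722 in B cells. Ifitm3, an antiviral membrane protein, went the other way, at 57.7 ± 42.2 CPM against 990 ± 249 in the Flt3-positive cells. Both chains of the interferon receptor were higher: Ifnar1 averaged 235 CPM against 63.9 and 61.6, and Ifnar2 353 CPM against 118 and 45.4.

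Genes of the secretory pathway were higher in pDCs, with 10 of 16 higher and 1 lower than in the Flt3-positive cells (median log2 difference 0.51). Beside B cells 18 of 22 were higher and 1 lower (median 1.10). The shares over all genes were 22.9% and 16.8% in the former comparison, and 17.8% and 11.0% in the latter. Without library 5 the count against the Flt3-positive cells was 6, with DESeq2 it was 5, and with Flt3-positive cells that held Zbtb46 it was 6. Xbp1, the factor that expands the endoplasmic reticulum, was 260, 339, 370, 236 and 435 CPM in pDCs and averaged 102 CPM in the Flt3-positive cells and 61.5 CPM in B cells, with no overlap. Sec61b, a subunit of the translocation channel, averaged 875 CPM against 523 and 280. Spcs2, a signal peptidase subunit, averaged 287 ± 9.87 CPM against 111 and 134, and Manf, a stress-induced factor of the same compartment, 285 CPM against 120 and 119. Edem2, which starts the disposal of misfolded glycoproteins, averaged 92.2 CPM against 17.6 in B cells. The markers of plasma cells, which also expand this pathway, summed to 8.70 to 58.9 CPM in pDCs and 25.9 to 77.5 CPM in the Flt3-positive cells. Of the 5 markers Prdm1 and Tnfrsf17 were at 0 in pDCs, while Jchain, Sdc1 and Irf4 had UMIs. A plasma cell share of the secretory RNA was not tested.

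Antigen presentation genes were lower. Of 11 tested, 8 were lower and none higher than in the Flt3-positive cells (median log2 difference -0.99). Over all genes 16.8% were lower and 22.9% higher there. Of 13 tested, 8 were lower and 2 higher than in B cells (median -0.50), against 11.0% and 17.8% over all genes. H2-Eb1, an MHC class II chain, was 973, 1357, 1020, 1864 and 1268 CPM in pDCs, against means of 4377 in the Flt3-positive cells and 2277 in B cells, and the libraries did not overlap. H2-Ab1, another MHC class II chain, averaged 2059 CPM against 4699 in the Flt3-positive cells. H2-Aa, whose product pairs with that of H2-Ab1, averaged 2618 CPM against 5150.4, and against 2943 CPM in B cells it was not called (adjusted p = 0.0820, edgeR), though TMM called it lower. Cd74, the invariant chain, averaged 5559 CPM against 9773 and 7398. Ciita, the master activator of these genes, averaged 155 ± 65.8 CPM against 623 and 304. The costimulatory gene Cd86 had 4 pDC UMIs, 5.40 CPM against 111 and 52.1, and Cd40 had 1 UMI against a B cell mean of 58.2 CPM. H2-DMb1, a peptide-loading chain, averaged 215 CPM against 317 and 84.3, lower than in the Flt3-positive cells and higher than in B cells; the former call was lost with Zbtb46-positive cells and with cells free of macrophage and monocyte markers.

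**Figure D4:**
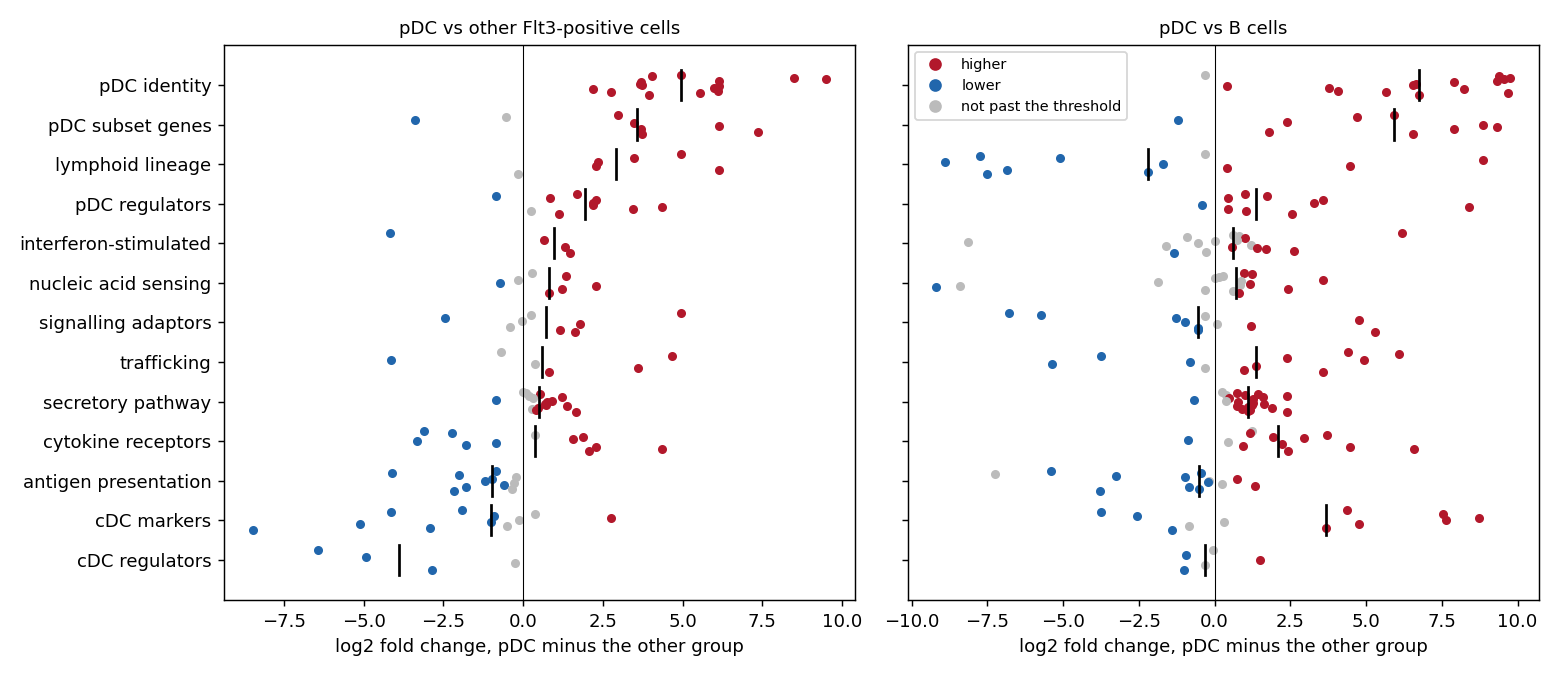
Log2 fold change of every tested gene of each list, pDCs minus other Flt3-positive cells on the left and pDCs minus B cells on the right, with 1 dot per gene coloured by its call and a vertical bar at the list median. The identity list has medians of 4.95 and 6.76, and the antigen presentation list medians of -0.99 and -0.50.

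Signalling adaptors were mixed. Tyrobp, the DAP12 adaptor through which Siglech signals, was 3144, 3368, 3674, 2689 and 4007 CPM in pDCs, 1097 CPM in the Flt3-positive cells and 88.3 CPM in B cells. Fcer1g, a related immunoreceptor chain, was not called against the Flt3-positive cells (917 against 768 CPM, adjusted p = 0.0658, edgeR) but stood far above 37.5 CPM in B cells. Syk, the kinase downstream of both, averaged 239 CPM, above 107 CPM in the Flt3-positive cells and below 348 CPM in B cells. Pik3ap1, a phosphoinositide 3-kinase adaptor, averaged 253 CPM against 72.3 and 110. The B cell kinases Btk and Blk were lower than in B cells, at 53.4 against 128 CPM and 2.67 against 145 CPM. In all, 4 of 8 adaptors were higher and 1 lower than in the Flt3-positive cells (22.9% and 16.8% over all genes). Beside B cells 3 of 11 were higher and 6 lower (17.8% and 11.0% over all genes).

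Homing genes differed in part. Selplg, a selectin ligand, averaged 418 ± 66.9 CPM against 239 and 34.5. Cxcr3, a receptor for interferon-induced chemokines, averaged 47.7 CPM against 1.504 in B cells. Ccr2, the monocyte egress receptor, averaged 199 ± 108 CPM against 321 ± 111 in the Flt3-positive cells and was not called there. Of 6 trafficking genes tested 3 were higher and 1 lower than in the Flt3-positive cells (22.9% and 16.8% over all genes). Of 11 tested 7 were higher and 3 lower than in B cells (17.8% and 11.0% over all genes).

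Genes known to divide pDCs into subsets were read per library and per cell. Ly6a, the stem cell antigen Sca-1, was 967, 1149, 1367, 1223 and 1244 CPM in pDCs, with 8 UMIs in all the Flt3-positive cells and 345 CPM in B cells. A Ly6a UMI was found in 100 of 128 pDCs, a Cd4 UMI in 63, a Lag3 UMI in 66, a Klra17 UMI in 67, a Ly6c2 UMI in 121 and a Cd8a UMI in 32. Cd4 and Cd8a were seen together in 15 cells, and Lag3 and the NK receptor relative Klra17 in 41. With each cell thinned to 1000 UMIs, Ly6c2 was seen in 74.2% of pDCs (95% interval 65.7 to 81.5%), in 10.3% of 185 Flt3-positive cells and in 0.895% of 28481 B cells. Cd4 was seen in 12.5% (7.32 to 19.5%), 1.08% and 0.179%, against 49.2%, 12.4% and 0.700% with all UMIs. Cd4 was 124, 218, 126, 268 and 173 CPM in libraries 1 to 5. The summed T cell markers were 22.2 to 161 CPM in pDCs and 94.1 to 330 CPM in the Flt3-positive cells. Cd8a was 79.9 ± 61.4 CPM against 120 ± 44.1 in the Flt3-positive cells and was not called. Cd9, a tetraspanin of pDC subsets, had a UMI in 4.69% of pDCs and 36.6% of Flt3-positive cells with all UMIs and averaged 9.94 CPM against 121. After thinning it was seen in 0 of 128 pDCs and 6.49% of 185 Flt3-positive cells. Whether a cell without a UMI lacks the gene cannot be read at this depth.

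**Figure D5:**
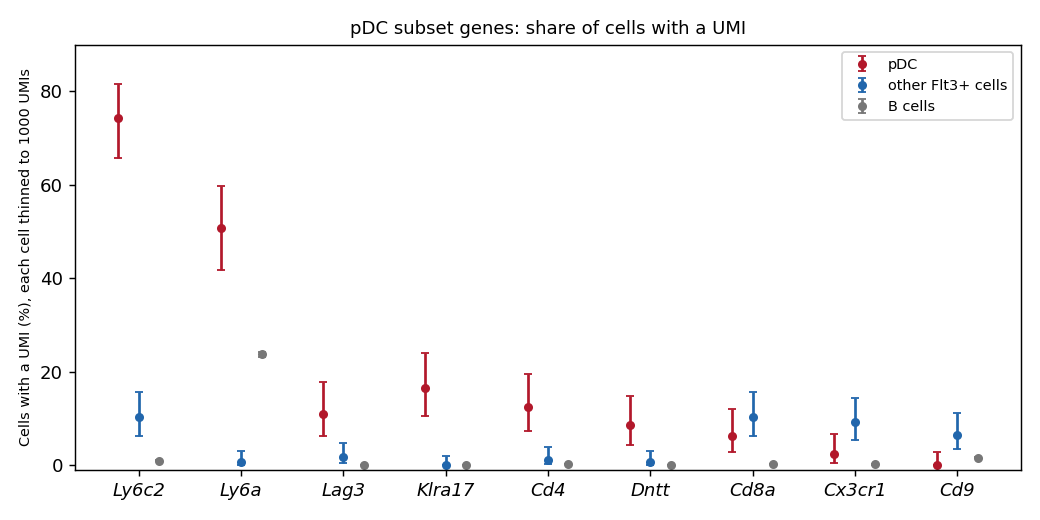
Share of cells in percent with a UMI of each subset gene after every cell was thinned to 1000 UMIs, with 95% Clopper-Pearson intervals, in pDCs, other Flt3-positive cells and B cells. Ly6c2 reaches 74.2% of pDCs and Cd4 12.5%.

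RNA of the lymphoid lineage was also read. Ighm, the immunoglobulin mu heavy chain, was 849, 1279, 1123, 942 and 1292 CPM in pDCs, with a median of 5.5 UMIs per cell. It was 211 CPM in the Flt3-positive cells and 3555 CPM in B cells, and after thinning a UMI was seen in 69.5% of pDCs, 12.4% of Flt3-positive cells and 92.4% of B cells. The summed B cell markers were 49.6 to 149 CPM in pDCs, 34.5 to 111 CPM in the Flt3-positive cells and 6016 to 6954 CPM in B cells. Dntt, the terminal transferase of early lymphocytes, was 62.0, 87.0, 111, 144 and 125 CPM in pDCs against 9.08 and 0.219 CPM, and Rag1 and Rag2 were at 0. Cd79b, the partner of Cd79a, averaged 44.6 CPM against 1548 in B cells. Of the lymphoid list, 5 of 6 tested were higher and none lower than in the Flt3-positive cells (median 2.92). Over all genes 22.9% were higher and 16.8% lower there. Dntt, Ly6d and Blnk passed the filter through their pDC level, and Ly6d and Blnk are also identity genes, so this count repeats part of that list. Beside B cells 3 of 11 were higher and 7 lower (median -2.19), against 17.8% and 11.0% over all genes.

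Receptors for cytokines pointed in both directions. Of 11 tested against the Flt3-positive cells, 5 were higher and 5 lower (22.9% and 16.8% over all genes). Of 12 against B cells, 9 were higher and 1 lower (17.8% and 11.0% over all genes). Il7r, the interleukin 7 receptor chain, was 217, 348, 310, 327 and 387 CPM in pDCs against 62.1 and 15.5, though its call against Flt3-positive cells free of macrophage and monocyte markers was lost. Lifr, the leukemia inhibitory factor receptor, averaged 322 ± 63.6 CPM against 14.98 and 3.36, and Tgfbr1, a transforming growth factor receptor, 156 CPM against 38.1 and 28.9. Beside the Flt3-positive cells both passed the filter on low counts through their pDC level, so no test is read there. Among those lower than in the Flt3-positive cells, Csf1r averaged 19.0 CPM against 179, Csf2ra 33.7 against 161, Il6ra 39.0 against 141 and Ifngr1 37.5 against 383. These genes passed the filter through the level of the Flt3-positive cells, where they are high, so no test is read from them. Csf2rb, the shared beta chain, was 205 CPM against 153 and was not called.

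Markers of other cells were read for the whole of each list. A UMI of at least 1 was found in 77 pDCs: 37 for B cell, 30 for T cell, 29 for macrophage and monocyte, 12 for neutrophil and 5 for NK cell markers; UMIs of at least 2 genes of a list were found in 5, 4, 12, 2 and 2. The NK genes Ncr1, Klrb1c and Gzma and the macrophage gene Fcgr1 were at 0. Library 1 stood apart. Its neutrophil marker sum was 10876 CPM and its red cell and platelet sum 7540 CPM; of 872 S100a8 UMIs over all pDCs 539 lay in 1 cell of library 1, and of 670 Hbb-bs UMIs 657 lay in 1 cell of library 1. Leaving out these 2 cells left every gene given with its values that was refitted on its side of the threshold. S100a8 UMIs were found in 7 pDCs, so other cells with S100a8 UMIs stayed in that refit. Cell cycle genes summed to 65.5 to 1358 CPM, the highest in library 1. Both Mki67 and Top2a were seen in 2 of 128 pDCs (1.56%, interval 0.190 to 5.53%), both of library 1, in 10 of 186 Flt3-positive cells (5.38%) and in 0.647% of B cells. Against B cells 4 of 12 cell cycle genes were called higher (median log2 difference 0.84), beside 17.8% of all genes. None was called higher without library 1, without the block or with DESeq2.

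A Ccr9 UMI was absent from 12 pDCs and present in 116. Ccr9 was 1 of the picking genes, and the split largely followed the edge of the rule, so the values are a description and no test is read from them. The 12 cells held a median of 5 identity genes against 12, 10 of the 12 had fewer than 8, and 6 of the 12 had only 2 or 3 Siglech UMIs. Median UMIs were 5924 without Ccr9 and 5692.5 with it, and the cells without Ccr9, 2 or 3 per library, summed to 8546 to 21561 UMIs in a library. Klk1 averaged 524 CPM with Ccr9 and 23.4 CPM without it, and Gm21762 346 and 23.4 CPM. Pltp, a phospholipid transfer protein, averaged 395 and 46.8 CPM, P2ry14 556 and 63.9 CPM, and Trib1, a pseudokinase, 416 and 58.4 CPM. Each of these genes rested on 1 to 3 UMIs in the cells without Ccr9. Vim, the intermediate filament vimentin, averaged 173 CPM with Ccr9 and 1258 CPM without it, Klf4 73.7 and 441 CPM, the calcium-binding S100a11 197 and 623 CPM, and the actin-binding Tmsb10 787 and 2050.3 CPM. Over 899 genes fitted, 3.23% lay past the threshold on the Ccr9 side and 0.556% on the other, 3.78% in all, and 6.12% had libraries that did not overlap; without library 2 none lay past it.

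In the rejecting kidney the same rule found 61 cells: 17 of 5377 (0.316%, 0.184 to 0.506%) in 1 library and 44 of 6571 (0.670%, 0.487 to 0.898%) in the other, at a median of 2210 UMIs per cell. Strain, organ, graft and depth all differ from the naive spleen and cannot be told apart, so the levels are a description. Cox6a2 was 656 and 1127 CPM, Runx2 1716 and 1505 CPM, Irf8 3559 and 2704 CPM, and Bcl11a 1338 and 1190 CPM. Klk1 was 252 and 78.8 CPM and Ly6d 1110 and 891 CPM. Tlr7 was 353 and 181 CPM, and Ly6a 782 and 1907 CPM. Lyz2 was 429 and 2617 CPM. The interferon genes measured there had 0 UMIs in these cells, over 166492 UMIs in all.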

How the data were processed

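The study sorted viable CD45+ cells and built droplet 3′ libraries. The authors deposited raw UMI counts per gene and cell, aligned to mm10; the Cell Ranger version is not given in the sources used here. The naive spleen matrix held 17644 genes and the rejecting kidney matrix 32285. No column of another series was used (0). UMI counts were summed per library and cell group and tested with edgeR 4.0.16 (R 4.3.3; quasi-likelihood, filterByExpr, plain library totals, library as a block since both groups come from the same library, Benjamini-Hochberg threshold 0.05); the genes that picked the cells were left out. SEs are the log2 difference divided by the root of F. Shares used Clopper-Pearson 95% intervals, and a group at 0 was set at 3 counts. Thinning drew 1000 UMIs per cell and left out 1 Flt3-positive and 95 B cells. DESeq2 1.42.0, TMM and other choices of cells were alternatives. Named genes are those of the lists and, per comparison, the 10 largest and 10 smallest log2 differences (5 for Ccr9) with at least 100 CPM. Members and lists were chosen with earlier results of these data known; the genes of the lists given with values were chosen among them for the text. The fit was tested on simulated data, with 2654, 10932 and 914 genes tested in the Flt3, B cell and Ccr9 designs. Of 4-fold changes 100%, 100% and 88.2% were recovered in this order, and of 2-fold changes 53.9%, 63% and 44.4%. Of the calls made 5.16%, 2.40% and 6.67% were false. Changes were planted only in genes of higher pooled level, with a single fixed dispersion and no library effect. The recovery of genes of low pooled level, such as those confined to pDCs in the B cell design, was not tested. Nor was that of genes that fail the filter on low counts, as Tlr7 did beside the Flt3-positive cells. Promoter windows are from RefSeq (GRCm38.p6). Fold changes can be distorted where near-identical genes share reads. Some genes of the lists are counted in them but not reported here by name.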

Additional observations from a re-analysis of the deposited data

Results flagged for a closer look

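In 28 of 133 groups of 5 libraries examined, 1 library lay far from the other 4. Far means that its gap to the nearest, divided by the range, was above 0.71. Chance flags about 1 in 20 groups of independent, normally distributed values. A gene with UMIs in 1 library only is always flagged, and sums share UMIs with single genes, so these rates cannot be compared. All values are CPM in pDCs. Library 1 was high in S100a8 (5395 CPM), Hbb-bs (4142 CPM), the neutrophil marker sum (10876 CPM), the red cell and platelet sum (7540 CPM), the cell cycle sum (1358 CPM), Lyz2 (223 CPM), Cd9 (37.2 CPM) and Naaa (18.6 CPM), and low in Ctss, a lysosomal protease (471 CPM). Library 3 was high in Ly6c2 (3141 CPM), Runx2 (1279 CPM) and Tgfbr1 (222 CPM), and library 5 in Smim5 (536 CPM) and Ccr7 (23.8 CPM). Library 4 was high in Ciita (268 CPM) and Ccl5 (78.5 CPM) and low in Ccr9 (883 CPM), which was used to pick the cells, and Pik3ap1 (177 CPM). The rest were genes with UMIs in 1 library only: Tlr9 (13.1 CPM), Cd40, Batf3, Cd22 and Pou2af1 (6.54 CPM each) in library 4, Cxcl16 (8.70 CPM) in library 2, S1pr1 and Gm34084 (6.20 CPM each) in library 1, and Vpreb3 and Tspan32 (5.95 CPM each) in library 5.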

How the results depend on the processing

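No gene given with its values had opposite directions in the main fit and an alternative where either fit placed it past the threshold. Changes of direction in genes past the threshold in neither fit were not counted. Of 1311 single-gene values against the Flt3-positive cells 1293 kept their side of the threshold, of 1225 against B cells 1196, and of 81 in the Ccr9 comparison 65. The share of pDCs was 0.108% without cells holding a foreign marker, 0.336% with Cd3e and Cd79a allowed and 0.219% after thinning (0.251 to 0.282% leaving out 1 library). Against the Flt3-positive cells, genes higher were 334 with DESeq2, 1020 with no filter, 353 without foreign markers, 79 thinned, 319 with Zbtb46-positive cells and 329 with cells free of macrophage and monocyte markers (chosen after seeing the data; 509 to 611 leaving out 1 library); genes lower were 968 with no filter, then 294, 83, 162 and 161 in the same order from foreign markers on (393 to 489). Thinned, 7 identity genes, 5 regulators and 3 secretory genes were higher and 5 antigen presentation genes lower; secretory genes were 5 with DESeq2 and 6 with Zbtb46-positive cells (6 to 11 leaving out 1 library, 6 without library 5), and cDC markers lower were 4 without foreign markers, 3 with Zbtb46 and 4 without macrophage markers. Against B cells, 1183 genes were higher without foreign markers and 619 thinned (1742 to 1858), and lower were 2044 with TMM, 679 and 350 (997 to 1091); secretory genes were 11 thinned. Cell cycle genes higher were 0 without the block, 2 with TMM, 0 with DESeq2, 0 with at least 3 Siglech UMIs, 2 without foreign markers and 1 thinned (0 to 5). In the split by Ccr9, from which no test is read, 50 genes lay past the threshold on the Ccr9 side and 14 on the other without the replicate block, and 47 and 56 with no filter (0 to 31 and 0 to 11 leaving out 1 library). Without the replicate block the other counts were 605 and 437 against the Flt3-positive cells and 2089 and 1283 against B cells, and apart from the 4 cell cycle genes above it changed no call of a gene given with its values and tested. The median share of pDCs with an identity gene was 27.3% thinned to 1000 UMIs, 71.9% with all UMIs and 45.3% at 2000 UMIs. Thinned and subset fits hold fewer UMIs and test fewer genes; the causes of the other changes were not tested. Depth limits all genes near 10 CPM.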
